A study of Mus musculus with 3 samples.

Results

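The genes described here are 10 regulators linked to T-cell quiescence, the resting state in which a lymphocyte stays small, makes little protein and does not divide. They were chosen by name, by a rule that uses no measured value but with earlier results of these data known, and all 10 were found among the 50600 genes of the count tables: Klf2, Foxo1, Foxo3, Foxp1, Btg1, Btg2, Tob1, Slfn2, Tsc22d3 and Txnip. Their RNA was measured by RNA sequencing in 3 libraries of mouse T helper 1 (Th1) cells, CD4 T cells that make interferon gamma. All 3 were primary cells of strain C57BL/6NJ at 48 h, a time that comes from the file headers, with no further treatment or genotype labelled. Age is given as unknown and sex as not collected. The libraries are numbered biological replicates 1, 2 and 3 of 1 group. They share 1 donor identifier and no label ties them to separate animals or cultures, so any p-value here measures only how far these samples spread, and that spread may be technical. Resting cells were not analysed here, so the data give the level that each gene had at 48 h and not its change from rest.

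Quiescence in T cells is held by several layers of control. FOXO and KLF2 transcription factors drive genes of homing and survival, and signalling through PI3K and AKT after antigen contact sends FOXO proteins out of the nucleus. BTG and TOB proteins recruit the CCR4-NOT deadenylase to messenger RNA and shorten its poly(A) tail, and TXNIP limits glucose uptake and binds thioredoxin.

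The libraries differed in depth and in where their counts fell. Replicate 1 held 4742025 counts, replicate 3 held 3543816 and replicate 2 held 50627. A gene at 0 may therefore lie anywhere up to 0.633 CPM (counts scaled to a library total of 1000000) in replicate 1, 0.847 in replicate 3 and 59.3 in replicate 2, if 3 counts are taken as the floor. These floors, like every interval below, cover counting error alone. Genes that share exonic positions with a gene on the opposite strand took 52.7% of the counts of replicate 1, 57.8% of replicate 2 and 72.2% of replicate 3. Xist, with 11.3% of its exonic length under opposite-strand exons, had 691, 18 and 3 counts in replicates 1, 2 and 3. Scaled to depth this was 146, 356 and 0.847 CPM, so replicate 3 was the library that held little of it. The shared donor identifier thus does not show that the libraries held like RNA. The headers name the libraries stranded and give a strand setting of 1, and the kit is not given in the sources used here. If the kit reads the opposite strand, this setting would assign fragments to the opposite-strand gene, and levels of genes without such a partner would rest on the minor share of fragments from the other strand. Which strand the fragments came from was not tested. In pairs where a gene lay for 90% or more under exons of an opposite-strand host and both held at least 20 counts together, the embedded one exceeded its host in counts per kb in 73.1% of 294 pairs for replicate 1, 77.1% of 48 for replicate 2 and 74.9% of 295 for replicate 3.

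The label of the cells matched most of its markers. All 6 T-cell genes tested, among them Trac, Thy1 and Cd4, were at 10 TPM or more in every library (TPM are counts per gene length, scaled to 1000000 over all genes). So were 4 of 5 Th1 genes (background 17.0% of protein-coding genes), including the lineage factor Tbx21 at 98.0, 99.6 and 52.0 TPM in replicates 1, 2 and 3. Another of the 4, Il12rb2, has 40.0% of its exonic length under opposite-strand exons and had 92, 2 and 115 counts. Cxcr3, the other Th1 gene, had 4, 0 and 2 counts. The summed level of the B-cell list was 3.53, 0 and 8.37 TPM, most of it from Cd79a at 3.21, 0 and 7.66 TPM. Cd79a had 10, 0 and 22 counts, while Ms4a1 and Pax5 were at 0 in every library. The myeloid list summed to 105, 84.5 and 167 TPM, nearly all from Csf1r, which has 17.8% of its exonic length under an opposite-strand gene, while Lyz2, Cd14, Itgam and Adgre1 were at 0. All 3 natural killer genes were at 0, and of the CD8 genes Cd8a was at 0 and Cd8b1 had 21, 1 and 13 counts. The part of other cells in the levels below was not tested. In such bulk RNA, fewer cells with a transcript and less of it per cell cannot be told apart.

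Of the 10 quiescence genes, 9 were at 1 TPM or more in every library, against a background of 14.8% of all genes and 29.4% of protein-coding genes (44.3% in replicates 1 and 3 alone, where the count was also 9). Klf2 was the exception. In replicate 2, 1 count was enough to put any of the 10 past 1 TPM, so this threshold asked there only for a count. Foxo1, Btg1, Tob1, Txnip and Tsc22d3 passed it there on 1 count each. The counting intervals of Tsc22d3 in replicates 1 and 3, 0.824 to 2.53 and 0.56 to 2.15 TPM, include 1 TPM. At 10 TPM or more in every library there were 2, Slfn2 and Foxp1 (background 9.14% of all genes and 17.0% of protein-coding genes). Replicates 1 and 3 alone added Btg1, for 3 of 10 (background 19.9% of protein-coding genes). Both thresholds sit on a scale that the opposite-strand genes share: scaled to the genes without opposite-strand exons, 8 of 10 reached 10 TPM in every library (background 27.8% of protein-coding genes), all but Tsc22d3 and Klf2, and again 9 reached 1 TPM (background 30.1%). On that scale Foxo1, Btg1, Tob1 and Txnip reached 10 TPM in replicate 2 on 1 count each. The level of Slfn2 stood alone at the top, 7 genes followed between means of 5.13 and 24.2 TPM, and Tsc22d3 and Klf2 were lowest. Without replicate 2 the means of Btg2, Foxo3, Tob1 and Tsc22d3 were 13.7, 7.65, 6.57 and 1.34 TPM. Without replicate 1 the mean of Btg1 was 13.6 TPM and Foxo1, at 3.76, came below Tsc22d3, at 5.34.

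**Figure D1:**
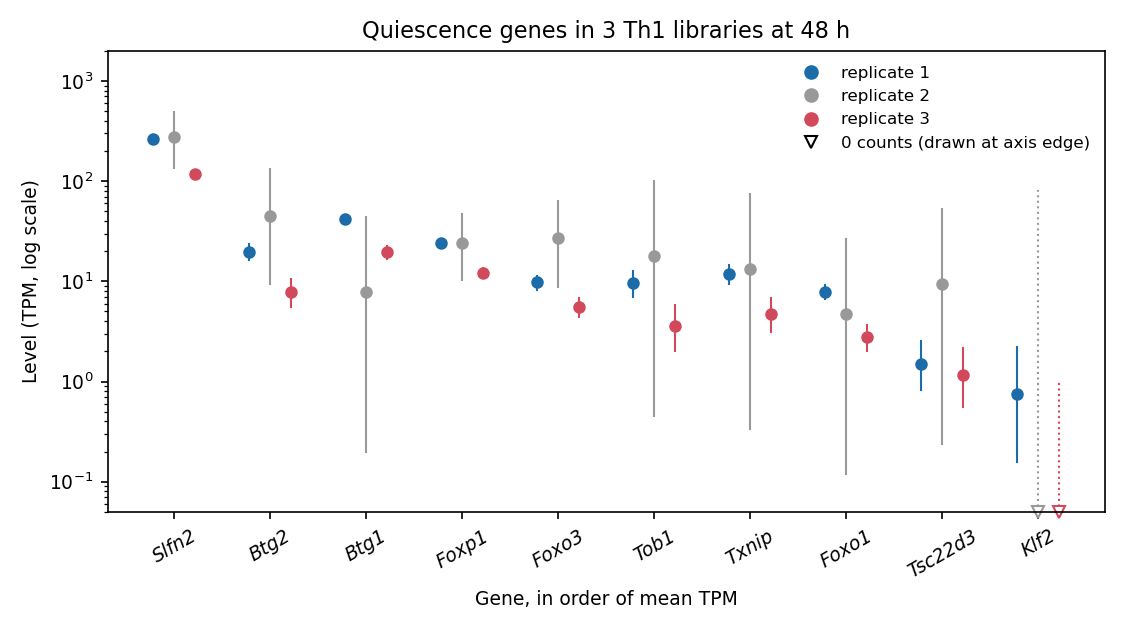
Level in TPM (log axis) of the 10 quiescence genes in replicates 1, 2 and 3, ordered by mean TPM, where points are the libraries and bars their exact 95% counting intervals. Slfn2 lies at 264, 273 and 116 TPM, and Klf2 has 3, 0 and 0 counts, with open triangles at the axis edge for 0 counts and dotted lines up to the upper bound.

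Klf2 (ENSMUSG00000055148.7, chromosome 8, 72319033 to 72321656, plus strand, mm10) encodes a zinc-finger factor that drives the receptors of lymphocyte homing and restrains proliferation. It had 3 counts in replicate 1 and 0 in replicates 2 and 3. Its level in replicate 1 was 0.759 TPM (exact 95% Poisson interval 0.156 to 2.22), and the limit of 3 counts was 67.1 TPM in replicate 2 and 0.824 TPM in replicate 3. In the deeper libraries it was therefore near or under the lowest level that could be counted, and replicate 2 could not have shown a moderate level. It shares no exonic position with an opposite-strand gene. The 250 bases before its RefSeq start (chr8:72318812-72319061, plus strand, GRCm38.p6) are shown because Klf2 was the only one of the 10 below 1 TPM. Capitals mark its 2 GC boxes, GGGCGG, which bind SP and KLF family proteins:

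Klf2: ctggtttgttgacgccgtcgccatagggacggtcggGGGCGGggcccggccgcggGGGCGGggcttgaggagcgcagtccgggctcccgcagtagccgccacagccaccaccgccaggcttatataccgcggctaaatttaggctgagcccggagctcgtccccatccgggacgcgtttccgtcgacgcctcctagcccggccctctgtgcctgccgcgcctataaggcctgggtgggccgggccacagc

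A GC box on either strand is found in 32.7% of the 32851 RefSeq promoter windows of this length and in 9 of the 10 quiescence genes, Slfn2 being without one. The 10 genes have 14 windows, 3 each for Foxp1 and Tsc22d3, and here and below a gene counts if any of its windows holds the motif, while the share over all is per window. The RefSeq start of Klf2 lies inside the gene model of the count table, whose first position is 72319033.

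The FOXO genes encode forkhead factors that AKT phosphorylates and 14-3-3 proteins retain in the cytoplasm. Foxo1 (ENSMUSG00000044167.6, chromosome 3, 52268336 to 52353221, plus strand), which drives Il7r and Klf2 itself in naive T cells, had 146, 1 and 47 counts in replicates 1, 2 and 3, or 7.87, 4.77 and 2.75 TPM. Foxo3 (ENSMUSG00000048756.11, chromosome 10, 42181841 to 42276755, minus strand), its relative linked to lymphocyte survival, had 158, 5 and 83 counts, or 9.75, 27.3 and 5.56 TPM. Both were lower in replicate 3 than in replicate 1, and the value of each in replicate 2 rests on 5 counts or fewer. Scaled to the genes without opposite-strand exons, Foxo1 was still lower in replicate 3, at 14.2 against 21.6 TPM, but Foxo3 was not, at 28.7 against 26.8 TPM. The log2 ratio of Foxo1 to Foxo3 was -0.31, -2.52 and -1.01, so Foxo1 was the lower in 3 of 3 libraries, past counting error in replicate 3 alone.

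Foxp1 (ENSMUSG00000030067.17, chromosome 6, 98925338 to 99522721, minus strand) encodes a forkhead repressor that keeps naive T cells quiescent. It had 716, 8 and 331 counts, which over its 13751 exonic bp came to 24.3, 24.0 and 12.2 TPM (20.2 ± 6.91; SD, n = 3). Replicates 1 and 2 were alike and replicate 3 lower. Scaled to the genes without opposite-strand exons, the values were 66.8, 75.9 and 63.0 TPM, and the ratio of replicate 1 to replicate 3 went from 1.99 to 1.06. It shares 300 bp with Gm20696 on its own strand, which had 1, 0 and 0 counts, and 135 bp with Gm49348, which had none.

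Btg1 and Btg2 encode small antiproliferative proteins that bind the CNOT7 and CNOT8 deadenylases, and together they help keep naive T cells at rest. Btg1 (ENSMUSG00000036478.8, chromosome 10, 96617006 to 96622809, plus strand) had 474, 1 and 202 counts, or 42.0, 7.83 and 19.4 TPM. Its single count in replicate 2 has an exact 95% Poisson interval of 0.198 to 43.6 TPM, which holds the values of both other libraries. Btg2 (ENSMUSG00000020423.6, chromosome 1, 134075170 to 134079120, minus strand) had 115, 3 and 42 counts, or 19.6, 45.2 and 7.77 TPM. Its 3 counts in replicate 2 allow 9.31 to 132 TPM. Btg1 was thus the higher in replicates 1 and 3, while in replicate 2 the order was the other way on 4 counts in all.

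The log2 ratio of Btg2 to Btg1 was -1.10, 2.53 and -1.32, with 95% counting intervals of -1.41 to -0.80 in replicate 1, -1.11 to 8.24 in replicate 2 and -1.84 to -0.84 in replicate 3. The mean order that places Btg2 above Btg1 (24.2 ± 19.1 against 23.1 ± 17.4 TPM; SD, n = 3) is set by replicate 2, and without it Btg1 moves from position 3 to position 2 and Btg2 from 2 to 4. The 250 bases before the start of Btg2 (chr1:134079156-134079405, minus strand, GRCm38.p6) are shown because it is the only one of the 10 with a full cyclic AMP response element, TGACGTCA, in capitals:

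Btg2: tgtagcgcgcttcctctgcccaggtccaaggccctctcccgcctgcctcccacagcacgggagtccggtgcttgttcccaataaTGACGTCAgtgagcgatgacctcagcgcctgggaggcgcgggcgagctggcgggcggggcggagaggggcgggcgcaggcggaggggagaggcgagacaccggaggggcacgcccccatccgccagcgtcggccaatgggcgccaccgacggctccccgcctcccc

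This element reads the same on both strands and lies 166 to 159 bases before the start. It occurs in 1.55% of all windows. Its shorter form TGACG, which overlaps it, occurs in 7 of the 10 genes and in 17.8% of all windows.

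Tob1 (ENSMUSG00000037573.5, chromosome 11, 94211454 to 94215495, plus strand) encodes a relative of the BTG proteins that restrains T-cell cytokine transcription and proliferation and joins poly(A)-binding protein to the deadenylase. It had 47, 1 and 16 counts, or 9.59, 18.1 and 3.55 TPM. Btg2 was above Tob1 by a log2 ratio of 1.03, 1.32 and 1.13 (1.16 ± 0.15; SD, n = 3), past counting error in replicates 1 and 3. Btg1 was above Tob1 by 2.13 and 2.45 in those libraries and below it by a log2 ratio of -1.21 in replicate 2, on 1 count each.

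Slfn2 (ENSMUSG00000072620.3, chromosome 11, 83065112 to 83070678, plus strand) is a schlafen family gene whose mutation in the elektra mouse leaves T cells unable to stay quiescent and prone to die on activation. It had 941, 11 and 382 counts, or 264, 273 and 116 TPM (218 ± 87.9; SD, n = 3). The 3 values put it above 97.5%, 97.8% and 95.7% of the 13262 protein-coding genes with a count. Replicates 1 and 2 were close and replicate 3 was lower. Scaled to the genes without opposite-strand exons, its level was 725, 862 and 601 TPM, and the ratio of replicate 1 to replicate 3 went from 2.27 to 1.21.

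Slfn2 exceeded the next gene by mean, Btg2, by a log2 ratio of 3.75, 2.60 and 3.91 (3.42 ± 0.72; SD, n = 3), past counting error in 3 of 3 libraries. By the order of replicates 1 and 3 the next gene was Btg1, which it exceeded by 2.65, 5.12 and 2.58. Slfn2 shares no exonic position with the opposite strand. Gm20234, chosen after its values were seen, spans it there with exons that share 0 bp with it and had 36, 0 and 51 counts. The 250 bases before the start of Slfn2 (chr11:83064862-83065111, plus strand, GRCm38.p6) are shown as those of the highest gene, with its CCAAT box in capitals:

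Slfn2: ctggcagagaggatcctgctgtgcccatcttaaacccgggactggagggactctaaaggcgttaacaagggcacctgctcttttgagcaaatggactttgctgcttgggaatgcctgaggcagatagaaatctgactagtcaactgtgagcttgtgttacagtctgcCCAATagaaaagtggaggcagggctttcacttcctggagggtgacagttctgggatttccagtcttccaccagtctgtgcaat

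A CCAAT box on either strand is in 33.9% of all windows and in 7 of the 10 genes. The Slfn2 window has a GC content of 50.8%, near the median of 52.4% over all windows, while those of Klf2 (71.2%), Btg2 (73.2%) and Tob1 (73.6%) lie above it.

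The genes whose CPM over the 3 libraries was nearest to that of Slfn2, by Euclidean distance of log2(CPM + 1) among 21763 other protein-coding genes, were Eif1ax, a translation initiation factor gene, Stk4, which encodes the Hippo kinase MST1, and Mat2a, which encodes a methionine adenosyltransferase. Slfn2 was at 198, 217 and 108 CPM and Eif1ax at 194, 217 and 109. Stk4 was at 200, 217 and 111 CPM and Mat2a, with 11.3% opposite-strand overlap, at 213, 217 and 109. The 4 genes have 11 counts each in replicate 2, so their nearness there is no finer than 1 count.

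Txnip (ENSMUSG00000038393.14, chromosome 3, 96557957 to 96561883, plus strand) encodes the thioredoxin-interacting protein, whose transcription follows glucose through MondoA and MLX. It had 79, 1 and 29 counts, or 11.8, 13.2 and 4.71 TPM (9.92 ± 4.56; SD, n = 3). Replicates 1 and 2 were alike and replicate 3 lower, with replicate 2 resting on 1 count. Scaled to the genes without opposite-strand exons, replicate 3 was still lower, at 24.3 against 32.4 TPM in replicate 1. The 250 bases before its start (chr3:96557707-96557956, plus strand, GRCm38.p6) are shown because all of them lie under exons of an opposite-strand gene, and because they hold a pair of E-box-like elements. Capitals mark 2 copies of CACGNG that are 5 bases apart, the arrangement known as a carbohydrate response element:

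Txnip: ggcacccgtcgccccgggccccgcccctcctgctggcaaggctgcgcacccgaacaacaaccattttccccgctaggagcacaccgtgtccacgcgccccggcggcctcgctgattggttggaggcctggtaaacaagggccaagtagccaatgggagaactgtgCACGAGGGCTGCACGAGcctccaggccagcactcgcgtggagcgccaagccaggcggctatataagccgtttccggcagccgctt

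The match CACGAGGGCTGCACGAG lies 85 to 69 bases before the start. This pattern, searched on both strands, occurs in 15 of the 32851 windows (0.0457%) and in no other of the 10 genes. The window also holds GTAAACA, a FOXO site, found in 3.17% of all windows and in Btg1 and Txnip among the 10. The plain E-box CACGTG was in none of the 10 and in 6.02% of all windows. These matches describe letters and not binding.

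Tsc22d3 (ENSMUSG00000031431.13, chromosome X, 140539528 to 140600659, minus strand) encodes GILZ, a leucine zipper protein induced by glucocorticoids and by FOXO3. It had 14, 1 and 10 counts, or 1.51, 9.51 and 1.17 TPM. Replicates 1 and 3 had nearly the same low level in TPM over all genes, and the higher value in replicate 2 is 1 count. Scaled to the genes without opposite-strand exons, Tsc22d3 was at 4.1 TPM in replicate 1 and 6.0 in replicate 3. Foxo1 exceeded it in replicates 1 and 3, with log2 ratios of 2.39 and 1.24 that each passed counting error, and lay below it in replicate 2, on 1 count each. Tsc22d3 and Klf2 could not be told apart, at a log2 ratio of 0.99 in replicate 1 with a counting interval of -0.85 to 3.43.

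Of the 9 neighbouring pairs in the order of mean levels, 6 separated past counting error in both deep libraries and 3 in no library. The pairs of related genes included, 12 pairs were compared and 11 could be tested by the exact two-sided sign-flip permutation test, whose smallest p over 3 libraries is 0.25. The smallest adjusted p was 0.55, and at this size the test cannot pass any pair. Foxp1 was above Foxo3 by 1.32 and 1.14 in replicates 1 and 3, both past counting error, and lay at -0.18 in replicate 2. By counting error, Foxo3 and Tob1 did not separate in any library (log2 ratio 0.02, 0.60 and 0.65), nor did Tob1 and Txnip (-0.30, 0.45 and -0.41), nor Tsc22d3 and Klf2. Txnip was above Foxo1 by 0.59, 1.47 and 0.78, past counting error in replicates 1 and 3. Btg1 was above Foxp1 by 0.79 and 0.67 in replicates 1 and 3, both past counting error, and lay at -1.62 in replicate 2. Of the 12 pairs, 5 had the same direction in every library, and 11 when replicate 2 was left out.

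Antisense genes covered part of Txnip and Foxo1, and both were assigned a higher TPM than the gene they faced in every library. The kit is not given, and which strand the fragments counted for these genes came from was not tested. Gm15441 (ENSMUSG00000074398.5, chromosome 3, 96555765 to 96566801, minus strand), an antisense RNA gene, covers 606 bp of the exons of Txnip, 19.4% of its exonic length, of which 327 bp are coding and 279 untranslated. The shared stretches run from 96557957 to 96558397 and from 96559678 to 96559842. Gm15441 had 626, 20 and 789 counts, or 174, 493 and 239 TPM, which is 14.8, 37.3 and 50.7 times the level of Txnip. Its exons extend beyond the start of Txnip and take in all 250 bases of the promoter window printed above.

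Gm20402 (ENSMUSG00000092405.1, chromosome 3, 52268435 to 52269435, minus strand), also an antisense RNA gene, covers 674 bp of Foxo1, 7.78% of its exonic length, 307 bp of it coding and 367 untranslated, all in the first exon. Of the exons of Gm20402, 98.1% lie under Foxo1. It had 314, 4 and 401 counts, or 213, 240 and 296 TPM, which is 27.1, 50.5 and 108 times the level of Foxo1. With 0.5 counts added to each gene, its log2 ratio of count per kb to Foxo1 was 4.76 in replicate 1 and 6.74 in replicate 3. Those values lie at percentiles 61.2 and 67.8 of all embedded pairs, whose medians were 3.82 and 5.25. None of the 250 bases before Foxo1 lie under its exons. The other 8 quiescence genes share no position with an opposite-strand exon.

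**Figure D2:**
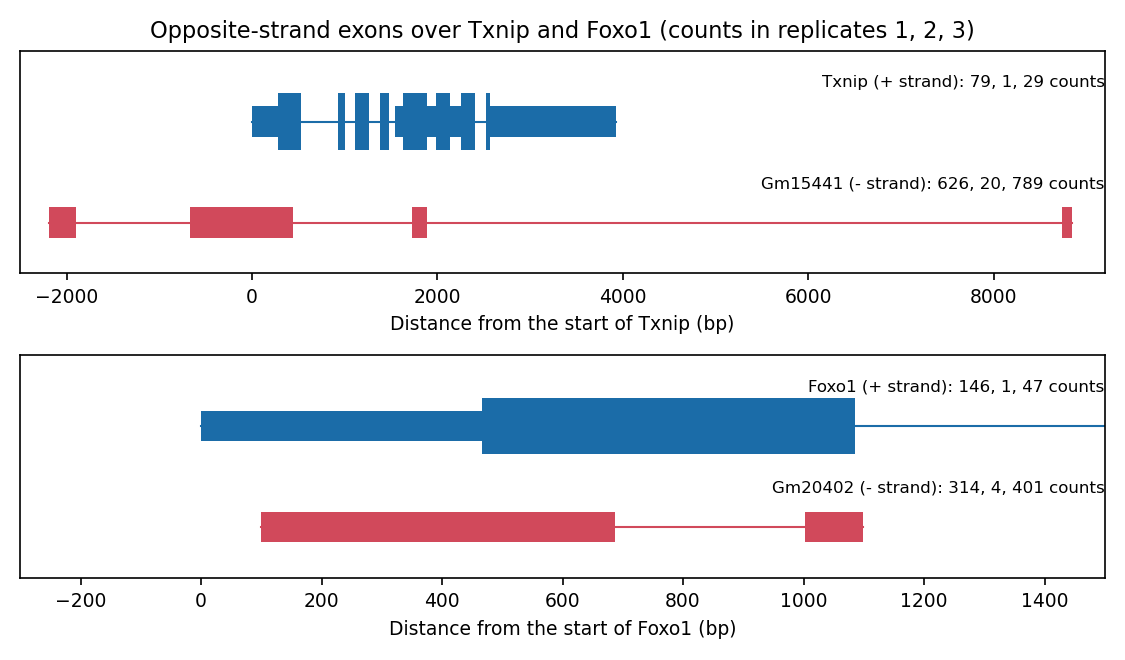
Exons of Txnip and Gm15441 (top) and of the first part of Foxo1 and of Gm20402 (bottom) by distance in bp from the start of Txnip or Foxo1, with coding parts drawn taller and the counts of replicates 1, 2 and 3 printed beside each gene. The antisense genes have 626, 20 and 789 and 314, 4 and 401 counts, above the 79, 1 and 29 of Txnip and the 146, 1 and 47 of Foxo1 that they face. The strand that these fragments came from was not tested.

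Between the 2 deep libraries, on library totals, the quiescence genes and the antisense genes lay on opposite sides of 0. The log2 ratio of CPM in replicate 3 to replicate 1 lay below 0 for 9 of the 9 quiescence genes with counts in both, from -1.21 for Foxo1 to -0.07 for Tsc22d3, with a median of -0.88. Most genes lay there too: 94.8% of 5857 genes free of opposite-strand exons, each holding at least 50 counts over both libraries, lay below 0, with a median of -0.84. The counting interval of each of the 9 genes includes -0.84. Gm15441 and Gm20402 were at 0.75 (0.60 to 0.91) and 0.77 (0.56 to 0.99), and over 211 genes with an overlap of 90% or more the median was 0.78. Scaled to totals over genes without opposite-strand exons, the median of the 9 was -0.11, and Foxo3 (0.26), Foxp1 (0.08) and Tsc22d3 (0.70) were above 0.

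**Figure D3:**
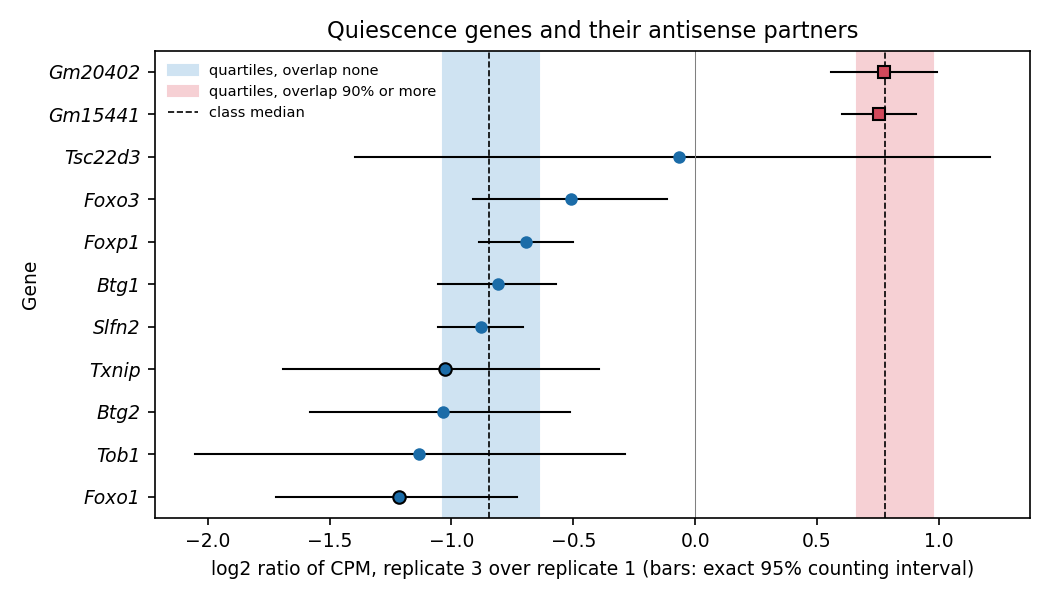
Log2 ratio of CPM in replicate 3 over replicate 1 (x axis) for 9 quiescence genes (circles, with a black edge for Foxo1 and Txnip) and the 2 antisense genes (squares), with exact 95% counting intervals. Bands and dashed lines give the quartiles and median of genes with no overlap (-0.84) and of those with 90% or more (0.78), and each quiescence gene's interval includes the first median.

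Over the 3 libraries, the chi-square test on edgeR's TMM-scaled totals with Benjamini-Hochberg adjustment called 4 of the 9 quiescence genes tested as varying beyond counting error. They were Slfn2 (adjusted p = 1.8e-05), Btg1 (0.0048), Foxo1 (0.011) and Btg2 (0.035), and the share over all genes was higher, at 63.2% of 7406. Leaving out a replicate left 0 called: 0 of 7 tested without replicate 1 (background 9.47%), 0 of 9 without replicate 2 (37.9%) and 0 of 8 without replicate 3 (3.65%). A test of only the genes without opposite-strand exons called 0 of 6 (background 13.5%). At an unadjusted p under 0.05 of the same test, 2 passed without replicate 1, 2 without replicate 2 and 1 without replicate 3, and 1 among the 6. The share over all genes at this unadjusted threshold was not computed, so these counts have no background and are not read as a trait of the quiescence genes. DESeq2 size factors gave 3 calls of 9 (background 54.3%), without Btg2 (adjusted p = 0.079), and no filter on low counts gave 3 of 10 (background 30.6%). Klf2 was removed by the filter on low counts, and without that filter its adjusted p was 0.65. Expected counts in replicate 2 were from 0.188 for Tsc22d3 to 10.1 for Slfn2, where the chi-square approximation is rough.

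The same libraries also held transcripts of cell division. All 18 division genes were at 10 TPM or more in every library (background 17.0% of protein-coding genes). Highest by mean was Ccna2, the cyclin of S phase and G2, at 239, 293 and 225 TPM (12.5% opposite-strand overlap). Next came Pcna, the polymerase clamp, at 278, 172 and 119 TPM, and Rrm2, a ribonucleotide reductase subunit, at 198, 209 and 81.3 TPM. The median log2(TPM + 1) of the quiescence genes was 3.55, 4.04 and 2.61, against 6.88, 6.64 and 5.91 for division and 2.83, 0 and 2.24 for all genes with a count. Slfn2 was above 17, 17 and 16 of the 18 division genes in replicates 1, 2 and 3. Btg1 was above 1, 0 and 3 of them and Foxp1 above 0, 2 and 1. Activation genes had a list median of 7.05, 6.66 and 5.87, led by Il2ra, the high-affinity interleukin 2 receptor chain, at 184, 217 and 86.3 TPM, Tfrc, the transferrin receptor, and Myc.

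**Figure D4:**
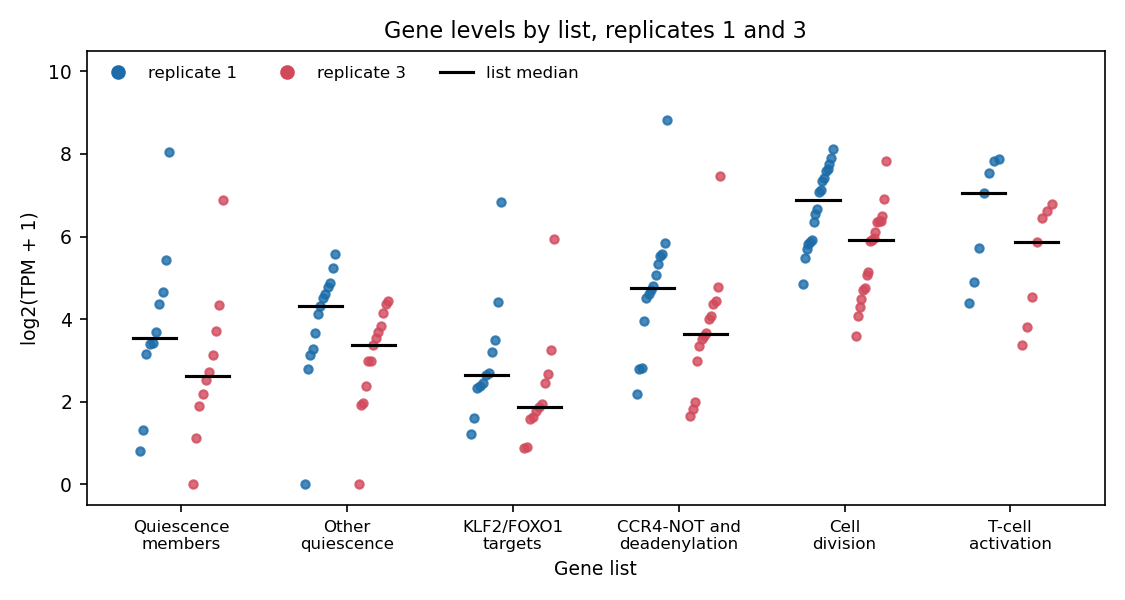
Level as log2(TPM + 1) (y axis) of each gene of 6 lists in replicate 1 (blue) and replicate 3 (red), with bars for list medians. The medians of the quiescence genes are 3.55 and 2.61, those of division 6.88 and 5.91, and the topmost quiescence gene, Slfn2, lies above 17 and 16 of the 18 division genes.

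Of 13 other genes tied to quiescence, 10 were at 1 TPM or more in every library and 4 at 10 TPM (background 29.4% and 17.0% of protein-coding genes). The list median was 4.32, 3.43 and 3.37. Zfp36l1, an RNA-decay factor, was highest at 47.0, 82.9 and 20.7 TPM, but 55.9% of its exonic length lies under opposite-strand exons. Vsir, the checkpoint receptor VISTA, stood at 18.9, 57.6 and 9.31 TPM and Pdcd4, an inhibitor of translation, at 36.7, 32.3 and 16.7 TPM. The value of Vsir in replicate 2 rests on 7 counts, and in replicates 1 and 3 further genes of the list lay above it. Foxj1, a forkhead factor, had no count in any library.

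Among 26 relatives of the 10 genes, 12 were at 1 TPM or more in every library (background 29.4% of protein-coding genes). Klf6 stood at 58.2, 78.3 and 24.3 TPM, with 525, 8 and 202 counts against the 3, 0 and 0 of Klf2. Foxp4 was at 53.1, 8.38 and 24.8 TPM. Foxo4, the third FOXO gene, was at 25.2, 23.7 and 27.4 TPM, above Foxo1 in every library, and its log2 ratio of CPM in replicate 3 to replicate 1 was 0.42 where those of Foxo1 and Foxo3 were -1.21 and -0.51. Btg4, Slfn4 and Arrdc5 had no count.

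Of 11 genes that KLF2 and FOXO1 are known to drive, 3 were at 1 TPM or more in every library (background 29.4% of protein-coding genes) and 9 in replicates 1 and 3 (background 44.3%). The list median was 2.64, 0 and 1.87, beside 2.83, 0 and 2.24 for all genes with a count. Ccr7, the lymph node homing receptor, was highest at 113, 209 and 60.0 TPM. Itgb7, an integrin chain, had 119, 0 and 46 counts and Il7r, the interleukin 7 receptor, 56, 1 and 18.

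The partners of BTG and TOB proteins were present. Of 14 CCR4-NOT and deadenylation genes, 13 were at 1 TPM or more in every library and 8 at 10 TPM (background 29.4% and 17.0% of protein-coding genes). Cnot10, which missed 1 TPM in replicate 2, had 358, 0 and 136 counts. Pabpc1, which encodes the poly(A)-binding protein, was at 453, 408 and 176 TPM. Cnot3 and Cnot6, a regulatory and a catalytic subunit, were at 45.5, 40.5 and 26.5 and at 46.8, 43.7 and 19.8 TPM.

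Genes around the FOXO factors, TXNIP and GILZ gave the following levels, beside a background of 29.4% of protein-coding genes at 1 TPM or more in every library. Of 12 AKT, SGK and 14-3-3 genes, 9 were at 1 TPM in every library, led by the 14-3-3 genes Ywhae (361, 257 and 170 TPM), Ywhab and Ywhaz. Of 9 thioredoxin and MondoA genes, 7 were, and Txn1, which encodes the thioredoxin that TXNIP binds, stood at 440, 432 and 155 TPM against the 11.8, 13.2 and 4.71 of Txnip. Txnrd1, a thioredoxin reductase, was at 73.4, 64.1 and 29.5 TPM and Mlx, the partner of MondoA, at 55.8, 62.0 and 41.1 TPM with 19.3% overlap. Of 7 glucocorticoid genes, Fkbp4 and Fkbp5, both cochaperones of the receptor, were at 1 TPM in every library, at 236, 118 and 114 and at 27.3, 38.9 and 13.1 TPM. Per1, a clock gene that glucocorticoids induce, had 149, 0 and 69 counts, and Zbtb16 had none.

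The mature transcripts of the 10 genes held a sequence tied to RNA decay about as often as those of all genes. The pentamer ATTTA, searched on the sense strand of the annotated part after the coding sequence, was found in 7 of the 10, against 63.1% of 20693 genes, and in Tob1 it was densest at 3.90 per kb against a median of 1.19. The longer TATTTAT, which contains it, was in Btg2, Foxp1 and Klf2, against 26.1% of all genes. Slfn2, Tsc22d3 and Txnip had neither. The stretches searched in Slfn2 and Tsc22d3 were 348 and 609 bp long, under the median of 837 bp over all genes. A short stretch has fewer places for a match, but that of Txnip, at 1357 bp, was longer than the median. Those of Btg1, Btg2, Foxo1, Foxo3 and Foxp1, which held a match, ran from 2202 to 6243 bp. By density, 7 of the 10 were above the median over all genes. The highest of the 10 genes and the second lowest were thus both without ATTTA.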

How the data were processed

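RNA was measured in 3 Th1 libraries of 1 group. The deposited values are whole-number counts of fragments per gene, made by the authors with featureCounts 1.4.6-p4 over exons with strand setting 1 and GENCODE M13, per the file headers, on mm10 per the labels. Neither the aligner's version nor the library kit is stated in the sources used. The deposited gene length, another value per the file headers, was used here for TPM.

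Of 50600 identifiers, 50376 were matched to a symbol. CPM, TPM and opposite-strand exonic overlap (8189 genes) were computed here, and coding parts came from GENCODE M21 on the same assembly. Promoter windows are RefSeq's, GRCm38.p6. Intervals are exact, Poisson for levels and conditional binomial for ratios, at 95%. Totals were 4742025, 50627 and 3543816 counts. Variation was tested by chi-square with 2 degrees of freedom on TMM totals (edgeR 4.0.16, R 4.3.3) over genes kept by filterByExpr, at an adjusted p of 0.05, and the script was tested on simulated data. DESeq2 1.42.0 gave alternative size factors, and other scripts ran in Python 3.11.15. With 1 group, no test between groups was possible. Lists are described by counts and medians.

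The 10 genes and all lists were chosen with earlier results of these data known. Named are the 10 genes, opposite-strand genes that share their exons, up to 3 genes of each list by mean TPM, list genes without a count where 5 or fewer, and the 3 genes nearest to Slfn2. Xist and some markers fall outside this rule and were chosen after their values were seen. Alternatives changed the scaling, unit, pseudocount, filter and denominator and left out each replicate in turn. Those that used only replicates 1 and 3, or counted genes at 10 TPM over genes without opposite-strand exons, were chosen after seeing the data. Alignments and signal tracks were not used here. A few listed genes are not reported here.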

Additional observations from a re-analysis of the deposited data

How the results depend on the processing

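The number of quiescence genes at 10 TPM or more in every library, 2, was 2 to 4 when each replicate was left out, 1 in FPKM and 8 in TPM over genes without opposite-strand exons. The background rose on that last scale too, from 17.0% to 27.8% of protein-coding genes. The number at 1 TPM, 9, was 9 without each replicate and 8 in FPKM. In the main setting, the share of genes at 1 and 10 TPM was 29.4% and 17% among protein-coding genes against 14.8% and 9.14% among all. Without replicate 2 it was 44.3% and 19.9% of protein-coding genes. No share was computed in FPKM or without replicate 1 or 3, so the counts there have no background. Genes varying beyond counting error, 4681 in all, numbered 271 to 4167 without each replicate (677 without replicate 1) and 560 among genes without opposite-strand exons. Of the quiescence genes 4 varied, 0 without replicate 1, 2 or 3, 0 among genes without opposite-strand exons, and 3 with DESeq2 size factors or with no filter. Pairs with the same direction in every library, 5, numbered 5 to 11 when a replicate was left out, 11 of them without replicate 2. The median log2 ratio of replicate 3 to replicate 1 was -0.88 on library totals, -0.43 with TMM and -0.11 on totals over genes without opposite-strand exons, where Foxo3 (0.26), Foxp1 (0.076) and Tsc22d3 (0.70, and 0.39 with TMM) changed sign. The cause was not tested. Slfn2 kept position 1 and Klf2 position 10 under each scaling and with each replicate left out. No paired analysis was possible because the study has only 1 group. Depth limits replicate 2 most: 1 count there is 19.8 CPM, against 0.211 in replicate 1 and 0.282 in replicate 3.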

Other observations

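Among genes of the lists without opposite-strand exons, Foxo4, Hsd11b1 and the B-cell gene Cd79a were among those that had a log2 ratio of CPM in replicate 3 to replicate 1 above 0, chosen here after their values were seen. Hsd11b1, which encodes the enzyme that regenerates active glucocorticoid, had 13, 0 and 31 counts in replicates 1, 2 and 3 and a ratio of 1.67 (exact 95% counting interval 0.70 to 2.73). Cd79a had 10, 0 and 22 counts. Foxo4 had 188, 2 and 188 counts and a ratio of 0.42 (0.12 to 0.72), above that of 96.6% of genes without opposite-strand exons. Slfn5os, which is outside the lists and has 64.4% of its exonic length under opposite-strand exons, had 106, 4 and 146 counts and a ratio of 0.88.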
